A study of Homo sapiens with 17 samples.

Results

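The own mRNAs of 6 proteins were examined here. They are the transcripts of AIFM1, NUMA1, RANGAP1, RNF219, VIM and ZNF184, the proteins whose RNA contacts the study mapped in the line 293T, which derives from human embryonic kidney. Peaks were assigned to a transcript when their midpoint lay in the gene span on the gene's strand in hg19. This gave 391 peaks, or 0.100% of the 389788 peaks deposited for 11 libraries. Of these, 55 came from the library of the protein that the gene encodes and 336 from libraries of the other proteins.

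In eCLIP, proteins are linked by ultraviolet light to the RNA they touch, and 1 protein is then recovered with its RNA by an antibody. All cells were untreated 293T cells of 1 line, crosslinked at 254 nm with 400 mJ per square cm, and RNA was taken from a gel window reaching 75 kDa above the protein. AIFM1, NUMA1, RANGAP1, VIM and ZNF184 had 2 libraries each and RNF219 had 1. A size-matched input, the RNA of that gel window with no antibody step, was made once per protein and shared by its replicates. No step of the labels changes the level of any of the 6 genes, so the names rest on the antibodies alone. The series calls the replicates biological and says no more of their cultures. The labels write AIFM for the AIFM1 antibody.

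Some RNA-binding proteins bind the mRNA that encodes them and thereby tune their own amount, and a fold over input in the own library is a first measure of such contact. None of the 6 proteins is a classical RNA-binding protein. AIFM1 is a flavoprotein of the mitochondrial intermembrane space that supports respiratory chain assembly and can act in cell death. NUMA1 organises microtubules at the spindle poles. RANGAP1 activates GTP hydrolysis by Ran, which drives transport through nuclear pores. RNF219, listed in RefSeq under its current symbol OBI1, is a RING-type ubiquitin ligase. VIM is vimentin, an intermediate filament protein of the cytoskeleton, and ZNF184 is a zinc finger protein.

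Each peak carries the authors' log2 fold of eCLIP over input and the authors' -log10 p of that fold, and both are the authors' own values throughout. A peak is called significant here where the -log10 p and the log2 fold are both 3 or more, so that the enrichment is 8-fold or higher. The libraries held 10682 to 63198 peaks, with a median log2 fold between 0.68 (AIFM1 replicate 2) and 2.27 (VIM replicate 1). To set libraries side by side, the relative log2 fold is the median log2 fold of a library's peaks in a gene minus the median of all its peaks. Read numbers were recovered from the folds and p-values and cover counting error only. Folds compare a library with its input and do not measure how much of a transcript the cells held.

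No own mRNA had a significant peak in the library of its own protein. With 0 significant among the 55 peaks in own libraries, the upper limit of the share is 5.45%, taken as 3 counts in 55. The libraries as a whole had 0.216% and 0.214% significant peaks in AIFM1, 1.51% and 0.877% in NUMA1, 1.52% and 2.99% in RANGAP1, 0.926% in RNF219, 5.29% and 4.5% in VIM and 3.15% and 4.82% in ZNF184. All of these shares lie under that limit, so the count of 0 does not set these genes apart from the rest of the lists. Among the 336 peaks of the other libraries 3 were significant (0.893%), all from ZNF184 libraries. The first lay in NUMA1 (chr11:71724896-71724928, minus strand), with a log2 fold of 3.35 from 15 eCLIP and 2 input reads in ZNF184 replicate 1. The second lay in RANGAP1 (chr22:41646382-41646407, minus strand), at 3.03 from 18 and 3 reads in ZNF184 replicate 1. The third lay in VIM (chr10:17275598-17275632, plus strand), at 4.52 from 15 eCLIP reads and 1 input read in ZNF184 replicate 2. Its 95% Clopper-Pearson interval ran from 1.82 to 9.91, so 1 input read sets its size only loosely. At a threshold of 4-fold with the same p, own libraries had 8 significant peaks. RANGAP1 libraries had 2 and 3 of them in RANGAP1, among 6 and 11 peaks, where 4.28% and 6.96% of all their peaks passed. Both peaks of RANGAP1 replicate 1 lay in the same stretch, 27 to 170 nt from the 5′ end, so they are not separate places. NUMA1 libraries had 1 each in NUMA1, among 11 and 10, where 4.17% and 2.17% passed. VIM replicates had 1 and 0 in VIM, among 5 and 3, where 7.26% and 5.93% passed. ZNF184 libraries had none in ZNF184, where 6.79% and 8.08% of all their peaks passed. In RANGAP1, however, they had 3 and 1, among 11 and 10 peaks. In NUMA1, ZNF184 replicate 1 had 2 among 26 and RANGAP1 replicate 1 had 1 among 21. In VIM, ZNF184 replicate 2 had 1 among 23. No further library had such a peak in the 6 genes.

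RANGAP1 was the only gene in which every own library had a higher relative log2 fold than every other library, and the difference did not pass its test. Its relative log2 fold was 0.23 and 0.42 in RANGAP1 replicates 1 and 2. In the other libraries it was 0.11 and -0.10 in AIFM1, -1.80 and -0.06 in NUMA1, -0.63 in RNF219, -0.34 and -0.97 in VIM and -0.33 and -0.14 in ZNF184. Both RANGAP1 libraries thus lay above all 9 others, and 8 of those 9 were below their own library median. The mean was 0.32 ± 0.13 (SD, n = 2) against -0.47 ± 0.60 (SD, n = 9), a difference of 0.79. The exact permutation test (2-sided, 55 choices of 2 libraries) gave p = 0.0909, and the smallest p it allows is 0.0182. Here and below the test treats all 11 libraries as exchangeable, although those of 1 protein share an antibody and an input, so that its p can be too small. With the 6 proteins as units the difference was 0.81 (exact permutation p = 0.167, the smallest that 6 choices allow), and no comparison can then pass 0.05. Over 40 kb pieces of the genome with a peak in every library, both RANGAP1 libraries were above all others in 6.04% of 1638 pieces, and the difference was at least as high in 13.9%. In 5.74% of pieces the exact permutation p was at most 0.05 with RANGAP1 libraries higher. Adjusted by Benjamini-Hochberg over these pieces and the gene, the exact permutation p was 0.730. With no centring on the library median the groups overlapped, whereas they did not in 3.05% of the pieces, and the difference was 0.72 (exact permutation p = 0.182). NUMA1 replicate 1, at -1.80 from 3 peaks, was the lowest library, and without it the difference was 0.63 (exact permutation p = 0.0444). With the highest peak of the gene in place of the median the difference was 0.39 (exact permutation p = 0.673).

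**Figure D1:**
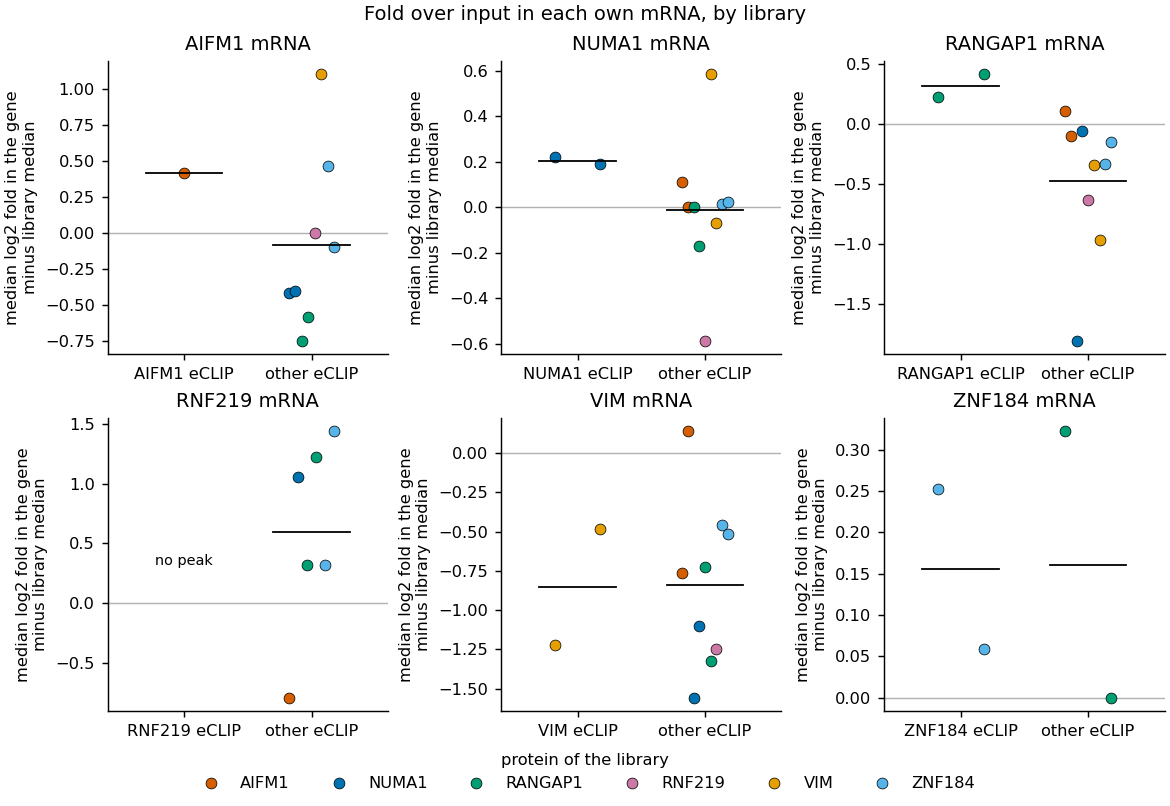
Relative log2 fold (median log2 fold over input of a library's peaks in the gene minus the median of all its peaks) for each of the 6 own mRNAs, with libraries of the encoded protein left and all other libraries right. Points are libraries coloured by protein, black lines are means, and only in RANGAP1, on this centred scale, do all own libraries lie above all others, at 0.23 and 0.42 against at most 0.11.

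RANGAP1 (chr22:41641615-41682216, minus strand) had 17 peaks in RANGAP1 libraries and 50 in the others. In the first 10% of the span lay 2 of 6 peaks in RANGAP1 replicate 1 and 3 of 11 in replicate 2, against 14 of 50 in the other libraries. In its last 1 kb lay 1 of 6 and 6 of 11 peaks in RANGAP1 replicates 1 and 2, against 6 of 50 in the others, so the peaks there came mostly from replicate 2. Elsewhere in the gene, single peaks of other libraries were higher than any in RANGAP1 libraries, up to a log2 fold of 3.86 in VIM replicate 1. Centred on the library median, that fold was 1.58, against 1.37 for the highest peak of the RANGAP1 libraries. No peak of VIM replicate 1 in the gene had a -log10 p above 2.11. The site highest in the RANGAP1 libraries spanned 27 to 170 nt from the 5′ end (chr22:41682046-41682189). It had a peak in 8 libraries, the most of any RANGAP1 site. The highest peak there had a log2 fold of 2.10 from 29 eCLIP and 10 input reads in RANGAP1 replicate 1, and of 2.79 from 35 and 9 reads in replicate 2. Their -log10 p were 4.50 and 8.34, past the threshold for p but under 8-fold, and 95% Clopper-Pearson intervals ran from 1.02 to 3.30 and from 1.70 to 4.03. These folds exceeded 73.6% and 86.9% of all peaks in their libraries.

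The same site was about as high with ZNF184, at 2.77 and 2.20 from 15 eCLIP reads each beside 3 and 5 input reads. The peak of ZNF184 replicate 1 lay inside both RANGAP1 peaks, which were 43 to 110 and 27 to 104 nt from the 5′ end. That of ZNF184 replicate 2, at 115 to 145 nt, overlapped neither. It was lower with AIFM1, at 1.02 and 0.58, and with NUMA1, at 0.17 and 0.00, while the RNF219 and VIM libraries had no peak there. The RANGAP1 intervals overlapped those of ZNF184 and of both AIFM1 libraries. The lower bound of RANGAP1 replicate 2, 1.70, was above the upper bounds of both NUMA1 libraries, 1.40 and 1.38, and that of replicate 1, 1.02, was not. The site was picked partly for its folds in RANGAP1 libraries, so these bounds are no test of a separation. Without this site the difference between RANGAP1 and other libraries over the gene was 0.31 (exact permutation p = 0.564), a value computed after the site had been seen. At the 3′ end, both RANGAP1 libraries had a peak in a site 39943 to 40015 nt from the 5′ end (chr22:41642201-41642273), with log2 folds of 1.56 and 1.19. These 2 peaks, at 39991 to 39999 and 39963 to 39981 nt, did not overlap each other. VIM replicate 1 had 2.08 there, AIFM1 replicate 1 had 0.70, VIM replicate 2 had 0.30 and ZNF184 replicate 2 had 1.03. Centred on the library median, these folds were 0.32 and -0.22 in RANGAP1 replicates 1 and 2, against -0.19 in VIM replicate 1, so the order of VIM replicate 1 and RANGAP1 replicate 1 turned. A further RANGAP1 site, 5202 to 5242 nt from the 5′ end, had 1.37 in RANGAP1 replicate 1 and 1.79, 0.89 and 1.26 in VIM replicate 1 and ZNF184 replicates 1 and 2. Centred, RANGAP1 replicate 1 was at 0.13 there and VIM replicate 1 at -0.49, again in the other order.

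**Figure D2:**
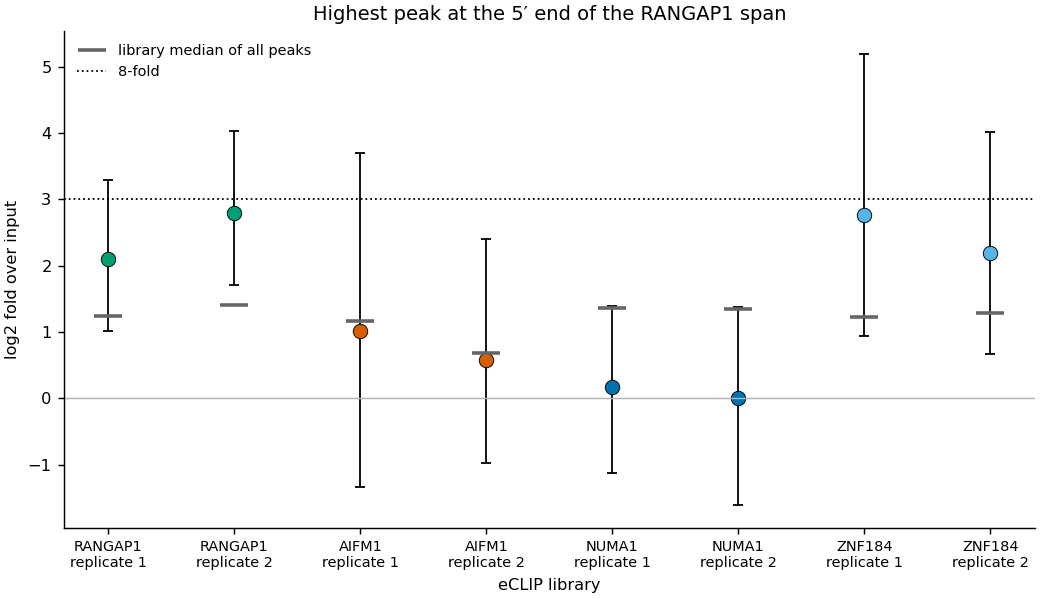
Log2 fold over input of each library's highest peak at the site 27 to 170 nt from the 5′ end of RANGAP1, with 95% Clopper-Pearson intervals from recovered reads as bars and the library's median over all peaks as grey dashes. RANGAP1 libraries stood at 2.10 and 2.79 and ZNF184 libraries at 2.77 and 2.20, while NUMA1 libraries were near 0. The peak of ZNF184 replicate 2 did not overlap the RANGAP1 peaks.

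Peaks near the 5′ end made up a larger share in the RANGAP1 libraries than in any other library, over the 6 genes together. Within the first 500 nt of a span lay 13 of their 99 peaks in the 6 genes, or 12.8% in replicate 1 and 13.5% in replicate 2. Replicate 1 had such a peak in AIFM1, NUMA1, RANGAP1, RNF219 and ZNF184, and replicate 2 in AIFM1, NUMA1, RANGAP1 and ZNF184. The other libraries had 11 of 292, between 0% and 8.33% each, in AIFM1 and RANGAP1 alone. The mean was 13.1% ± 0.492 (SD, n = 2) against 3.62% ± 3.35 (SD, n = 9), and the exact permutation p (2-sided) was 0.0182, the smallest that 55 choices allow, and 0.167 with proteins as units. Without the RANGAP1 gene itself the share was 9.76% in both RANGAP1 libraries, or 4 of 41 peaks each, against 0% to 3.70% in the others (exact permutation p = 0.0182, and 0.167 with proteins as units). The others had from 7 such peaks in AIFM1 replicate 1 to 60 in ZNF184 replicate 2, with 9 in each VIM library and 19 in RNF219. A share of 0% from so few peaks sets no limit below 9.76%. The VIM gene had no peak before 1022 nt, so its peaks only enlarged the totals. This measure was chosen after the positions had been seen and was not run on other genes.

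NUMA1 mRNA had a slightly higher relative log2 fold in NUMA1 libraries than the mean of the others, a difference of 0.22 that was within the spread of the other libraries. The relative log2 fold was 0.22 and 0.19 in NUMA1 replicates 1 and 2. It was 0.11 and 0.00 in AIFM1, 0.00 and -0.17 in RANGAP1, -0.58 in RNF219, 0.58 and -0.07 in VIM and 0.01 and 0.02 in ZNF184. VIM replicate 1 alone was above the NUMA1 libraries, with 4 peaks, and both own libraries were above all others in 1.83% of pieces. The mean was 0.21 ± 0.02 (SD, n = 2) against -0.01 ± 0.30 (SD, n = 9), and the exact permutation p was 0.345 (1 after Benjamini-Hochberg adjustment over 1636 pieces and the gene). A difference at least as high was found in 27.3% of the pieces, and one past an exact permutation p of 0.05 with NUMA1 libraries higher in 1.41%. The share of peaks with a log2 fold of at least 1, less that share over the library, was 18.1 percentage points higher in NUMA1 libraries (exact permutation p = 0.0364). Of 18 alternatives for NUMA1 this alone passed 0.05, and it was not run over the pieces or with proteins as units. Restricted to peaks of 10 or more input reads, the difference was 1.58. It rested on 1 peak of NUMA1 replicate 2, with 11 input reads, since NUMA1 replicate 1 had no such peak. The highest peak of the gene, centred likewise, gave a difference of -0.36, in the opposite direction.

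NUMA1 is the longest span (chr11:71713910-71791573, minus strand, 77664 nt) and had the most peaks, 164, of which 21 were from NUMA1 libraries. Of the 164 peaks, 146 lay more than 56 kb from the 5′ end, as did 20 of the 21 NUMA1 peaks. The highest site shared by both NUMA1 libraries was 72845 to 72954 nt from the 5′ end (chr11:71718619-71718728). Its log2 fold was 2.00 from 20 eCLIP and 9 input reads in replicate 1 and 2.29 from 17 and 11 reads in replicate 2, with -log10 p of 3.41 and 4.84. Intervals ran from 0.80 to 3.32 and from 1.12 to 3.53. Only AIFM1 replicate 2 had a further peak there, at 0.68 from at least 3 eCLIP reads and at least 1 input read. A missing peak says nothing of the fold in the other 8 libraries. The other sites shared by both NUMA1 libraries were lower, at 1.11 and 1.67 (chr11:71732402-71732445) and at 0.85 and 1.08 (chr11:71719010-71719053). AIFM1 replicate 2 had 1.10 at the last of these. The sites with most libraries, 6 each, were at most 1.86, 1.73 and 2.42 in any library, and NUMA1 libraries had 1 peak among these 3 sites, at 0.43.

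**Figure D3:**
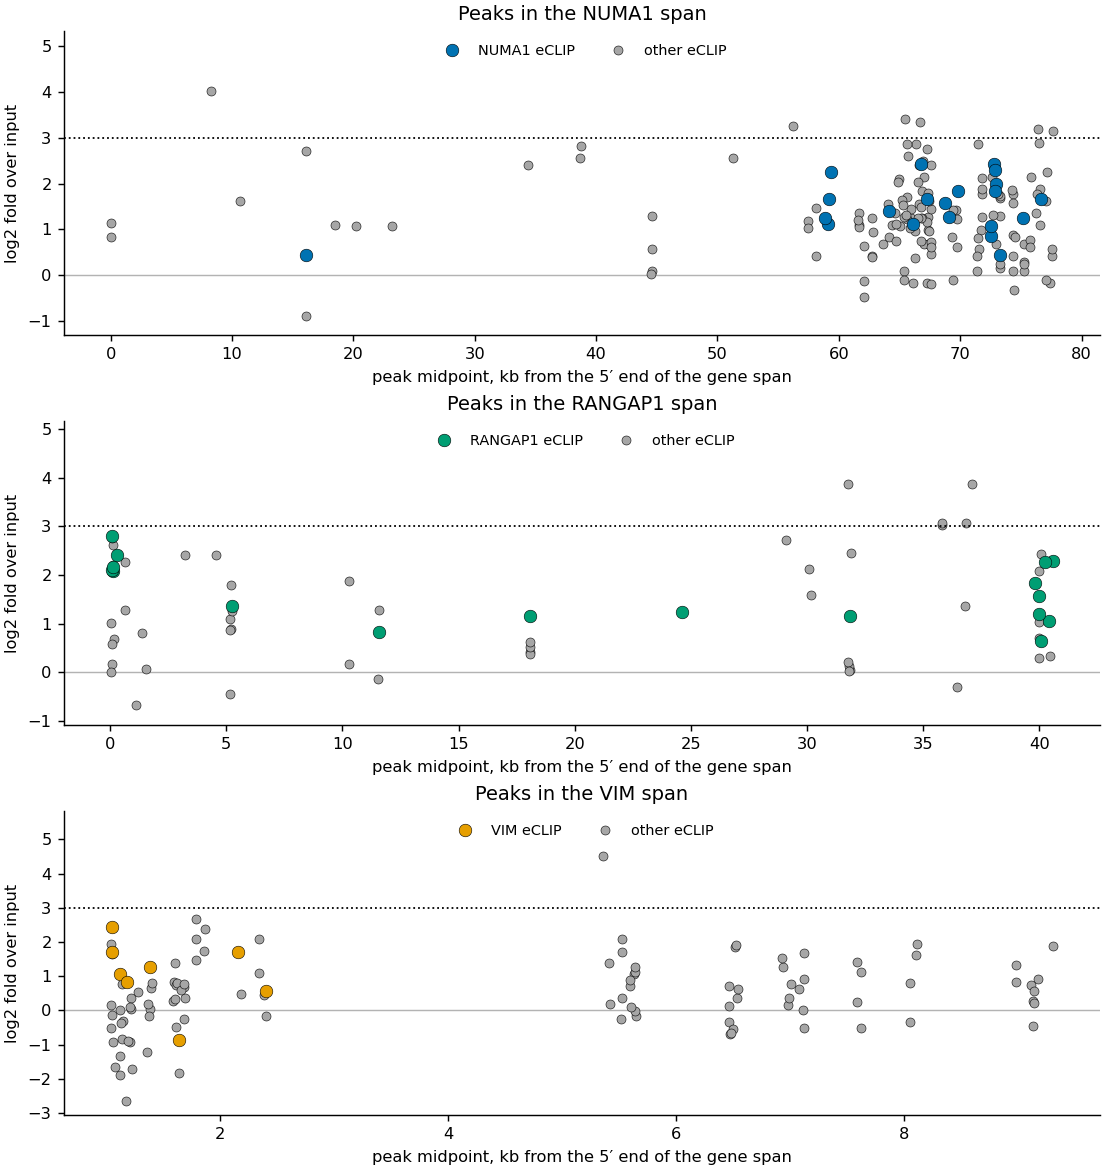
Log2 fold over input of every peak in the NUMA1, RANGAP1 and VIM spans against the distance of its midpoint from the 5′ end in kb, with peaks of the encoded protein's libraries in colour and all others in grey. The dotted line marks 8-fold, which no coloured peak reaches, and all 8 VIM peaks lie in the first 3 kb of VIM.

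VIM mRNA lay below the library median in both VIM libraries and in most others. The relative log2 fold was -1.22 and -0.49 in VIM replicates 1 and 2. It was -0.76 and 0.14 in AIFM1, -1.56 and -1.10 in NUMA1, -0.72 and -1.32 in RANGAP1, -1.25 in RNF219 and -0.46 and -0.52 in ZNF184. Of 11 libraries 10 were below 0, and the VIM libraries lay within the range of the others. The mean was -0.85 ± 0.52 (SD, n = 2) against -0.84 ± 0.53 (SD, n = 9), with an exact permutation p of 0.964 (0.987 after Benjamini-Hochberg adjustment over 1637 pieces and the gene). With VIM libraries higher, 3.05% of the pieces passed an exact permutation p of 0.05, and 16.1% did in either direction. With the highest peak of the gene the difference was -1.30 (exact permutation p = 0.127). On the deposited scale, without centring, the order was another. The median log2 fold was 1.05 and 1.71 in VIM libraries and at most 0.82 elsewhere, with means of 1.38 ± 0.47 (SD, n = 2) and 0.36 ± 0.39 (SD, n = 9) and an exact permutation p of 0.0182 (0.167 with proteins as units). The same order without centring was found in 22.1% of the pieces, against 2.87% with it, and VIM libraries had the highest median folds of all, 2.27 and 2.20.

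The VIM span (chr10:17270258-17279592, plus strand, 9335 nt) was the shortest and yet held 111 peaks. A site 1022 to 1432 nt from the 5′ end (chr10:17271280-17271690) had a peak in all 11 libraries, the only such site in the 6 genes. There the highest log2 fold was 2.43 from 10 eCLIP and 9 input reads in VIM replicate 1, and 1.71 from 9 and 9 reads in replicate 2, with -log10 p of 3.35 and 1.68. RANGAP1 libraries had 1.95 and 1.64, and the remaining libraries ran from -1.20 in RNF219 to 0.81 in ZNF184 replicate 2. The highest peaks of the VIM and RANGAP1 libraries lay between 1024 and 1079 nt from the 5′ end. Those of the remaining libraries lay between 1176 and 1432 nt and did not overlap them, so their folds belong to another part of the site. Centred on the library median, VIM libraries were at 0.15 and -0.49, against 0.71 and 0.22 in RANGAP1 libraries, so the order depends on the centring. The intervals of the VIM and RANGAP1 libraries overlapped, since those of VIM were 0.97 to 3.90 and 0.20 to 3.22 and those of RANGAP1 0.72 to 3.34 and 0.28 to 3.10. The next site (chr10:17271815-17271975), present in 10 libraries, was at -0.87 in VIM replicate 2 and at most 1.38 in the others. A site 6434 to 6558 nt from the 5′ end (chr10:17276692-17276816) had peaks in 8 libraries and in neither VIM library, with 1.87 and 1.90 in AIFM1 and at most 0.70 elsewhere. The peak at 0.70, in ZNF184 replicate 2, lay 6440 to 6480 nt from the 5′ end and overlapped neither AIFM1 peak.

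All 8 peaks of the VIM libraries lay in the first 3 kb of the span, against 51 of 103 peaks of the other libraries. All others lay beyond 5 kb. The share in the first 3 kb was 100% in both VIM libraries and ranged from 25% in ZNF184 replicate 1 to 80% in RANGAP1 replicate 1, with a mean of 54.9% ± 20.2 (SD, n = 9). The exact permutation p (2-sided) was 0.0182 over libraries and 0.167 over proteins. The VIM libraries gave only 5 and 3 peaks here, in 2 and 3 sites, and had short lists. AIFM1 replicate 1, with a list of like length, had 3 of 4 peaks in the first 3 kb. The measure was chosen after the positions had been seen, and the part of list length was not tested.

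AIFM1 mRNA (chrX:129263337-129299861, minus strand) had 31 peaks, with none in AIFM1 replicate 1 and 2 in AIFM1 replicate 2. A count of 0 among the 12042 peaks of replicate 1 allows up to 2.49 per 10000 peaks. Both peaks of replicate 2 had a log2 fold of 1.10 from 4 eCLIP reads and 1 input read. The relative log2 fold was 0.42 in AIFM1 replicate 2. It was -0.42 and -0.41 in NUMA1, -0.75 and -0.58 in RANGAP1, 0.00 in RNF219, 1.10 in VIM replicate 2 and 0.47 and -0.10 in ZNF184, and VIM replicate 1 had no peak. AIFM1 replicate 2 was thus below VIM replicate 2 and ZNF184 replicate 1 and above the other 6. In 12.7% of 2676 pieces with values in the same libraries it was the highest. The difference from the mean of the other 8 was 0.50, with an exact permutation p of 0.556, where 9 choices allow no p below 0.111. The site with most libraries, 5, was 148 to 331 nt from the 5′ end (chrX:129299530-129299713). Its log2 fold was 1.10 in AIFM1 replicate 2 with an interval from -2.24 to 6.72, against 2.35 in ZNF184 replicate 2, 1.83 and 0.74 in RANGAP1 replicates 2 and 1 and 0.04 in NUMA1 replicate 1. Centred on the library median, AIFM1 replicate 2 and RANGAP1 replicate 2 were both at 0.42. ZNF184 replicate 2 was then at 1.06, RANGAP1 replicate 1 at -0.50 and NUMA1 replicate 1 at -1.32. The NUMA1 peak, at 319 to 330 nt, did not overlap that of AIFM1, at 183 to 220 nt.

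ZNF184 mRNA (chr6:27418522-27440897, minus strand) had 9 peaks, of which 7 were from ZNF184 libraries. ZNF184 replicate 1 had 6 peaks and replicate 2 had 1, while RANGAP1 replicates had 1 each and the other 7 libraries none. Per 10000 peaks of a library this was 0.949 and 0.186 in ZNF184, against 0.188 and 0.194 in RANGAP1. The mean was 0.568 ± 0.540 (SD, n = 2) against 0.0424 ± 0.0842 (SD, n = 9), with an exact permutation p of 0.0545 (0.167 with proteins as units, the smallest that 6 choices allow). Replicate 1 had the highest rate of the 11 libraries, and replicate 2, with 1 peak, was slightly below both RANGAP1 libraries. Where 0 peaks were found, in 7 libraries, the limit ran from 0.671 per 10000 in NUMA1 replicate 1 to 2.81 in VIM replicate 1, so that the rate of replicate 2 was within the limit everywhere and that of replicate 1 in 5 of the 7. The 7 ZNF184 peaks lay 19877 to 21907 nt from the 5′ end and the RANGAP1 peaks at 224 and 334 nt. No site was shared by any 2 libraries. The relative log2 fold was 0.25 and 0.06 in ZNF184 libraries, against 0.32 and 0.00 in RANGAP1 libraries (exact permutation p = 1, where 6 choices allow none below 0.333). The groups overlapped, and in 26.5% of 7681 pieces with values in the same libraries both ZNF184 libraries were above both others. The ZNF184 peaks had 5 to 8 eCLIP and 1 to 4 input reads each and a -log10 p of at most 1.20. The highest log2 folds were 2.77 (chr6:27421016-27421020), 1.86 (chr6:27420844-27420885) and 1.77 (chr6:27419423-27419451), all in replicate 1.

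RNF219 mRNA (chr13:79188421-79233314, minus strand) had no peak in the RNF219 library, so no difference could be formed. The 0 among 24624 peaks allows up to 1.22 per 10000. Of the other libraries 6 had 9 peaks in all, at 0.158 to 0.630 per 10000, which is within that limit. The relative log2 fold was -0.79 in AIFM1 replicate 2, 1.06 in NUMA1 replicate 2, 0.32 and 1.22 in RANGAP1 and 0.32 and 1.44 in ZNF184, from 1 to 3 peaks each. The highest log2 folds were 2.83 (chr13:79195598-79195617) and 2.64 (chr13:79231950-79231991) in RANGAP1 replicate 2 and 2.73 (chr13:79190493-79190511) in ZNF184 replicate 2. No site was shared by libraries, and -log10 p reached 2.94 at most.

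**Figure D4:**
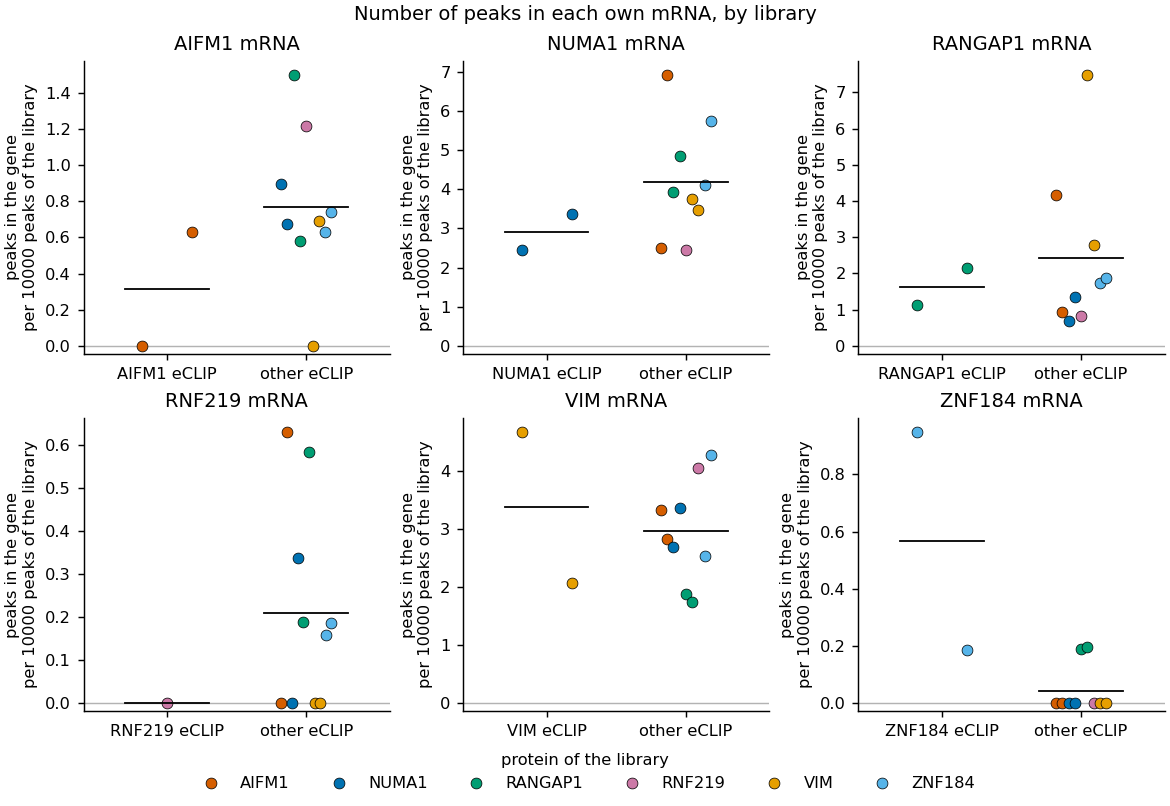
Peaks in each of the 6 own mRNAs per 10000 peaks of the library, with libraries of the encoded protein left and all other libraries right. Points are libraries coloured by protein and black lines are means. ZNF184 replicate 1 has 0.949, above all other libraries in the ZNF184 gene, and the RNF219 library has none in RNF219.

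In the other 5 genes the number of peaks in own libraries lay within the range of the other libraries, except in VIM replicate 1, and no difference passed the test. For RNF219, with 1 library, it could not pass, since 11 choices allow no p below 0.0909. In NUMA1 it was 2.46 and 3.36 per 10000 in NUMA1 libraries, against 2.44 to 6.94 in the others (exact permutation p = 0.236). In RANGAP1 it was 1.13 and 2.13 in RANGAP1 libraries, against 0.671 to 7.49 (exact permutation p = 0.691). In VIM it was 4.68 and 2.08 in VIM libraries, against 1.75 to 4.27 (exact permutation p = 0.655). In AIFM1 it was 0 and 0.630 in AIFM1 libraries, against 0 to 1.50 (exact permutation p = 0.218). In RNF219 it was 0 in its library, against 0 to 0.630 (exact permutation p = 0.636). Among pieces of the genome with a like total of peaks, the libraries of a protein were all above the others in 2.18% for AIFM1, 1.62% for NUMA1, 2.68% for RANGAP1, 9.72% for RNF219, 8.47% for VIM and 6.91% for ZNF184. None of the 6 genes had that order.

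**Figure D5:**
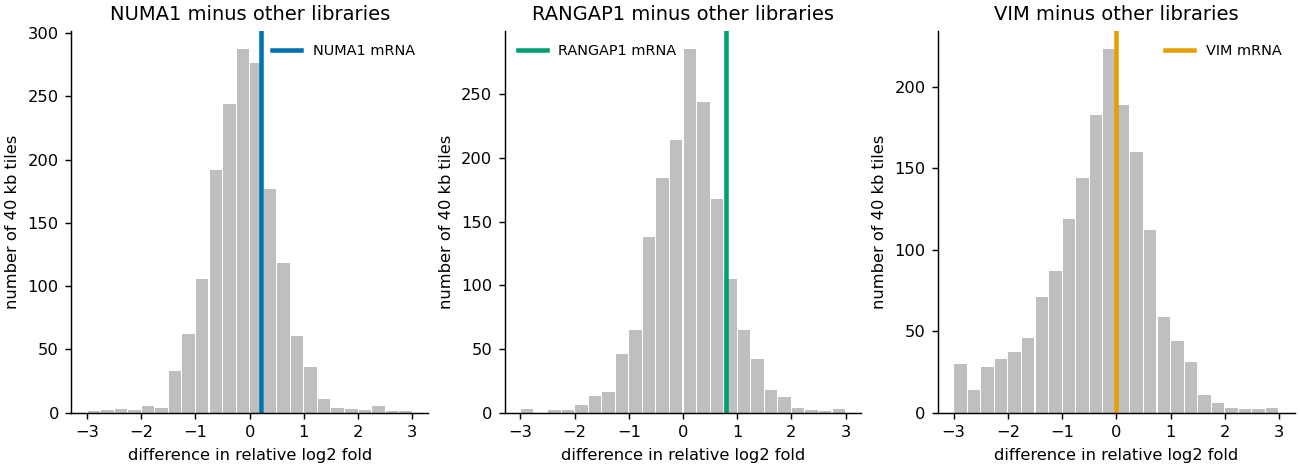
Difference in relative log2 fold between the protein's libraries and all others for 40 kb pieces of the genome with a peak in all 11 libraries (grey bars, number of pieces, end bars include values beyond 3), with the own mRNA as a coloured line. The lines stand at 0.22 for NUMA1, 0.79 for RANGAP1 and -0.01 for VIM, inside the bulk of the pieces.

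The pieces whose values over the 11 libraries were most like those of a gene were found by Pearson's r among pieces with at least 3 peaks in every library. For RANGAP1 they were chr10:77120001-77160000 (r = 0.806) and chr22:36880001-36920000 (r = 0.766), both on the minus strand, out of 449. For NUMA1 the highest r was 0.863 and for VIM 0.851. These values describe the libraries. They share centring and input, and 2.45% to 3.57% of pieces had an r of at least 0.7 with a gene.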

How the data were processed

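The authors deposited, for each of 11 eCLIP libraries, a list of peaks with a -log10 p-value and a log2 fold of eCLIP over size-matched input, in hg19. Per the submitters' processing notes, cutadapt, STAR, GATK, Picard and SAMtools were used. No source used here names the peak caller, and the 6 inputs have no file of their own. Peaks were called per library, so that a gene without a peak in a library has no fold there.

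Of each list, the log2 fold was centred on the library median and summarised per gene by the median over its peaks. Own and other libraries were compared by an exact 2-sided permutation test over libraries, and the same test was run over strand-specific 40 kb pieces of the genome, with Benjamini-Hochberg adjustment over pieces and gene. Recovered reads are whole numbers whose ratio gives the fold within 1e-07 and whose p (exact binomial, or Yates-corrected chi-square) lies within 0.005 of the deposited -log10 p. Of 391 peaks, 321 were settled so, and the other 70, all at a -log10 p of 0, have lower bounds only. Depth was taken from these reads, since library totals are not in the lists. A site merges peaks that overlap by at least 1 nt. Peaks of 1 site can be linked through other peaks without overlapping each other. Sites named are, per gene, up to 3 that are highest in the own libraries among those with a peak in each of them, and the 3 with a peak in most libraries. The genes, sites and tests were chosen with earlier results of these data known. Alternatives were another summary, centring, filter, threshold and gene membership, a replicate block, leaving out each library, and, added after seeing the data, proteins as the units of the test. Python packages were numpy 2.4.6, pandas 2.3.3, scipy 1.17.1 and matplotlib 3.10.9. Gene sequences and exon annotation were not used here.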

Additional observations from a re-analysis of the deposited data

Results flagged for a closer look

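Peaks also lay on the strand opposite to a gene, which no comparison used. The NUMA1 span had 20 such peaks in 9 libraries, all between chr11:71714077 and 71716346 on the plus strand. None was significant. The strongest by p was in NUMA1 replicate 1, with a log2 fold of 2.96 and a -log10 p of 3.59, and the highest fold was 3.30 in VIM replicate 2, with a -log10 p of 1.37.

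The VIM span had 7 such peaks in 4 libraries, all in its first kilobase on the minus strand, and none in a VIM library. Their log2 folds reached 2.85 in NUMA1 replicate 1 and none was significant. Which transcripts these peaks belong to was not tested.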

How the results depend on the processing

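The difference between own and other libraries changed direction, side of the threshold or size by over 1.5 times as follows, and the causes were not tested. With the highest peak of the gene in place of the median it was -0.24 for AIFM1, -0.36 for NUMA1, 0.39 for RANGAP1 (exact permutation p = 0.673), -1.30 for VIM (exact permutation p = 0.127) and 0.64 for ZNF184. With no centring it was -0.21 for AIFM1 and 1.02 for VIM (exact permutation p = 0.0182). With at least 10 input reads per peak it was 1.08 for RANGAP1, 0.36 for VIM and 1.58 for NUMA1. For RANGAP1 the exact permutation p was 0.0357, the smallest that 28 choices allow. Peaks whose reads were not settled entered this filter by their lower bound. Some of them may thus have been dropped despite 10 or more input reads. The VIM value came from VIM replicate 1 alone and the NUMA1 value from 1 peak of NUMA1 replicate 2. As the share of peaks with a log2 fold of at least 1 it was 18.1 percentage points for NUMA1 (exact permutation p = 0.0364), 15.9 for VIM and 4.02 for ZNF184. As a mean weighted by peak length it was 0.17 for ZNF184, 0.31 for AIFM1 and -0.08 for VIM. Without the site at the 5′ end it was 0.31 for RANGAP1. At a log2 fold of at least 2 significant peaks in own libraries numbered 5 for RANGAP1, 2 for NUMA1 and 1 for VIM, where 8-fold gave 0.

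Leaving out each library in turn gave 0.63 to 0.89 for RANGAP1, 0.14 to 0.29 for NUMA1, -0.38 to 0.35 for VIM, 0.41 to 0.67 for AIFM1 and -0.17 to 0.16 for ZNF184. For RANGAP1, without NUMA1 replicate 1 the exact permutation p was 0.0444, and without any other library it was above 0.05. VIM turned positive without AIFM1 replicate 2 (0.11), RANGAP1 replicate 1 (0.000407), VIM replicate 1 (0.35), ZNF184 replicate 1 (0.03) or ZNF184 replicate 2 (0.03), and ZNF184 without RANGAP1 replicate 1 (0.16) or ZNF184 replicate 2 (0.09). With proteins as units VIM was 0.03, NUMA1 0.27 and RANGAP1 0.81, none able to pass 0.05. VIM and ZNF184 started at -0.01, so their sign carries no order.

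With the replicate number as a block the difference was 0.78 for RANGAP1, 0.22 for NUMA1, -0.03 for VIM, 0.41 for AIFM1 and -0.01 for ZNF184. No call changed. The difference between replicates 1 and 2 of 1 protein was correlated with that of another over 1638 pieces. For 10 protein pairs the r lay between -0.05 and 0.07, none above 0.1, so no shift shared by replicate number was seen. Whether cultures were paired cannot be told from this. RNF219 gave no value under any alternative, since its library had no peak in the gene, and AIFM1 and ZNF184 gave none with at least 10 input reads per peak.

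Depth limits the small peaks. Of the 321 settled peaks 34 had 1 input read, which the fold cannot tell from none, and beside 1 input read a log2 fold of 3 with a -log10 p of 3 takes 5 to 23 eCLIP reads, depending on the library.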

Other observations

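For NUMA1, the pieces of 40 kb most like the gene over the 11 libraries were chr8:144880001-144920000 (Pearson's r = 0.863) and chr17:73880001-73920000 (r = 0.839), both on the minus strand, out of 449. For VIM they were chr12:53840001-53880000 (r = 0.851) and chr16:89600001-89640000 (r = 0.839), both on the plus strand, out of 448. The points share library depth and input, and no p was computed.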
